A study of Mus musculus with 16 samples.

Results

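The endoplasmic reticulum (ER) folding set comprises 41 genes whose products translocate, glycosylate, fold, sort or dispose of secretory proteins such as thyroglobulin, together with the sensors of the unfolded protein response (UPR). The genes were chosen by name and function, with earlier results of these data known. All 41 were found once among the 24623 distinct symbols of the count table and passed the low-count filter that left 16630 genes. Thyroid RNA came from 16 female mice of strain C57BL/6, aged 1 month, in 4 groups of 4. WT(ND) and WT(LID) mice were labelled only as WT. The *Glis3*-Pax8Cre groups, one per diet, carried the alleles Glis3<tm2Amj> (labelled B6;129) and, as the source of Cre, Pax8<tm1.1(cre)Mbu>, so that Cre expressed from *Pax8* deletes exon 5 of *Glis3*. After weaning at 3 weeks, ND mice ate the NIH-31 normal diet and LID mice a low iodine diet (TD.95125, Harlan). The design asks how iodine restriction, which raises the demand for hormone synthesis, and the transcription factor GLIS3 act on the gland. Cre acts only where *Pax8* is active, which in the thyroid is the follicular cell, so C cells, vessels and stroma in the same gland keep the intact gene.

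Thyroglobulin, the large glycoprotein from which thyroid hormone is made, enters the ER of the follicular cell while it is being translated. It is glycosylated, folded with many disulfide bonds by chaperones and disulfide isomerases, and retained or degraded when it misfolds. The UPR has 3 sensors, IRE1 (*Ern1*), PERK (*Eif2ak3*) and ATF6 (*Atf6*). They adjust the folding capacity of the ER, in part through the factor XBP1 and through ER stress response elements in the promoters of chaperone genes.

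The number of read pairs assigned to genes ran from 13892352 to 461077969 among the mice, so that 3 counts, the limit that a count of 0 allows, came to between 0.00651 and 0.216 CPM (counts scaled to a common library size). All 41 genes lay well above this limit, at 4.1 CPM or more in every mouse. *Tg*, the thyroglobulin gene, took from 7.87% to 29.3% of the counts, and 9 of 9 follicular cell markers were detected. On the ND, *Glis3* lay between 45.2 and 85.8 CPM in WT mice and between 85.8 and 105 in *Glis3*-Pax8Cre mice. Under the LID it lay between 125 and 174 CPM in WT mice and between 120 and 204 in *Glis3*-Pax8Cre mice. These are counts over the whole gene, so they do not check the deletion of 1 exon. The labels do not say how the mice of a group were housed or processed, so p-values measure the spread between these mice.

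Promoters were read first, since the classic targets of the UPR are recognised by a short element. The ER stress response element (ERSE) was searched as CCAAT, 9 bases of any kind and CCACG on both strands. It occurred in 9 of the 34 genes that had an entry in the RefSeq promoter table (GRCm38.p6, 250 bases before to 50 after the gene start), or 26.5%, against 37 of 27025 genes in the whole table, or 0.137%. The second form, ERSE-II, was searched as ATTGG, 1 base and CCACG, and occurred in 2 of the 34 genes (5.88%) and in 12 of all genes (0.0444%). Both forms share CCACG, and ATTGG is CCAAT on the other strand. The XBP1 element TGACGTGG, which also holds CCACG on its other strand, and the GLIS element TGGGGGGT were found in 0 of the 34 windows and in 0.714% and 1.79% of all genes. These are matches of letters, not measured binding sites. The windows of 4 chaperone genes, of *Pdia6*, of the calcium-binding lectins *Calr* and *Canx*, and of the degradation genes *Syvn1*, *Herpud1* and *Derl3* are shown because their expression is followed below. Each is on the strand of its gene, and capitals mark the conserved ends of the element, CGTGG and ATTGG where it reads on the opposite strand.
Hspa5, chr2:34772020-34772048, + strand: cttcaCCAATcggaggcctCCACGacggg
Hsp90b1 distal, chr10:86705633-86705661, - strand: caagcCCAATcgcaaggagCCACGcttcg
Hsp90b1 proximal, chr10:86705528-86705556, - strand: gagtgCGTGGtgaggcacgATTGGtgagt
Dnajc3, chr14:118937822-118937850, + strand: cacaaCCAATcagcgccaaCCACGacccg
Creld2, chr15:88819515-88819543, + strand: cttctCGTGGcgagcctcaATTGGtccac
Canx, chr11:50325795-50325823, - strand: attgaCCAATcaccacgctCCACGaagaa
Calr, chr8:84847070-84847098, - strand: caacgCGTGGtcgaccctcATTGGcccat
Pdia6, chr12:17266486-17266514, + strand: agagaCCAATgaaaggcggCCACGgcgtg
Syvn1, chr19:6046527-6046555, + strand: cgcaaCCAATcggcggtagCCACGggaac
Derl3, chr10:75893237-75893265, + strand: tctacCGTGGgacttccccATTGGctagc
Herpud1 (ERSE-II), chr8:94386372-94386392, + strand: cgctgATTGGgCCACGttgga

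**Figure D1:**
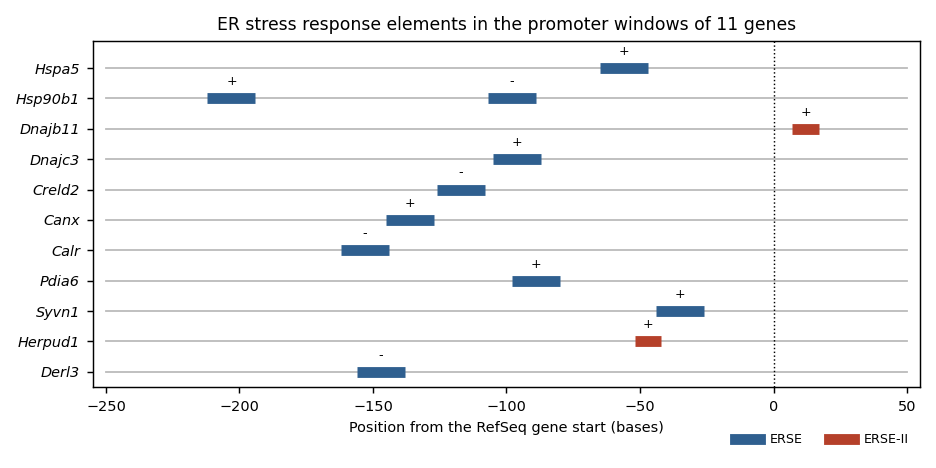
Positions of ERSE (blue) and ERSE-II (red) matches in the promoter windows of 11 genes, in bases from the RefSeq gene start on the x axis, with the strand of the match above each bar. All matches except that of *Dnajb11* lie before the start, the farthest at -212 and the nearest ending at -26.

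Under the LID, all 4 disulfide isomerases, 3 of 4 oligosaccharyltransferase subunits and 3 of 4 lectin genes rose in both genotypes. Of the 9 HSP70 and HSP90 genes, 3 rose in WT (33.3%) and 5 in *Glis3*-Pax8Cre (55.6%). Of the 7 translocon genes, 3 rose in WT (42.9%) and 5 in *Glis3*-Pax8Cre (71.4%). In WT mice 19 of 41 genes rose (46.3%, against 20.9% of all 16630 genes) and 2 fell, *Derl3* and *Sec61b* (4.88%, against 20.8%). The median log2 fold change was 0.44, beside -0.03 over all genes. In *Glis3*-Pax8Cre mice 25 of 41 rose (61.0%, against 13.1% of all genes) with a median of 0.53, beside -0.03. By edgeR's quasi-likelihood test 0 genes fell there (12.3% of all genes did), with 1 at an unadjusted p under 0.05 and 0 by DESeq2. All calls use an adjusted p under 0.05 from edgeR with Benjamini-Hochberg adjustment over all genes. In bulk tissue, more of an RNA per cell and more cells of the type that makes it cannot be told apart.

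Of the genes that rose, 17 did so in both genotypes, which is 89.5% of the WT list and 68.0% of the *Glis3*-Pax8Cre list. Over all genes 1428 rose in both, or 41.1% and 65.4% of the respective lists, and the 2 diet comparisons share no mice. *Dnajb11* and *Edem3* passed the test only in WT, and *Canx*, *Derl2*, *Eif2ak3*, *Hspa5*, *Hyou1*, *Manf*, *Sec61a1* and *Ssr3* only in *Glis3*-Pax8Cre. A gene past the threshold in 1 genotype alone is not shown to differ between them, and the test of that difference was passed by *Ssr2* alone. The remaining 14 genes passed in the upward direction in neither genotype in this fit, which has no replicate block. They were *Atf6*, *Derl1*, *Derl3*, *Dnajb9*, *Dnajc3*, *Edem1*, *Ern1*, *Herpud1*, *Rpn1*, *Sdf2l1*, *Sec61b*, *Spcs2*, *Syvn1* and *Xbp1*. The labels do not name pairs, but same-numbered *Glis3*-Pax8Cre mice on the 2 diets deviated together, so the number was taken as pairing. This pairing is inferred from the data, and ND replicate 1 (correlation 0.21) was closest to a LID mouse of another number. The block of 16 mice also applies the number to WT mice, whose same-numbered correlations between diets ran from -0.17 to 0.14. With the number as a block in the fit of 16 mice, *Dnajb11* (0.43, adjusted p = 0.0306), *Derl1* (0.24, adjusted p = 0.0387) and *Rpn1* (0.34, adjusted p = 0.0248) also rose in *Glis3*-Pax8Cre, and *Eif2ak3* no longer passed (0.33, adjusted p = 0.0612). In the block of the 8 *Glis3*-Pax8Cre mice alone, *Dnajb11* (0.42, adjusted p = 0.0477) and *Dnajb9* (0.41, adjusted p = 0.032) were the genes added, and *Edem2* (0.37, adjusted p = 0.0504) and *Eif2ak3* (0.32, adjusted p = 0.0736) those lost.

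When each of the 16 mice was left out in turn, 13 genes rose in WT and 16 in *Glis3*-Pax8Cre in every fit. The 10 that did so in both were *Uggt1*, *Lman1*, *P4hb*, *Pdia4*, *Sel1l*, *Ssr1*, *Ssr4*, *Rpn2*, *Ddost* and *Stt3a*. Without *Glis3*-Pax8Cre(LID) replicate 3 the count in *Glis3*-Pax8Cre mice was 16, and without WT(ND) replicate 4 or WT(LID) replicate 1 the count in WT was 13.

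**Figure D2:**
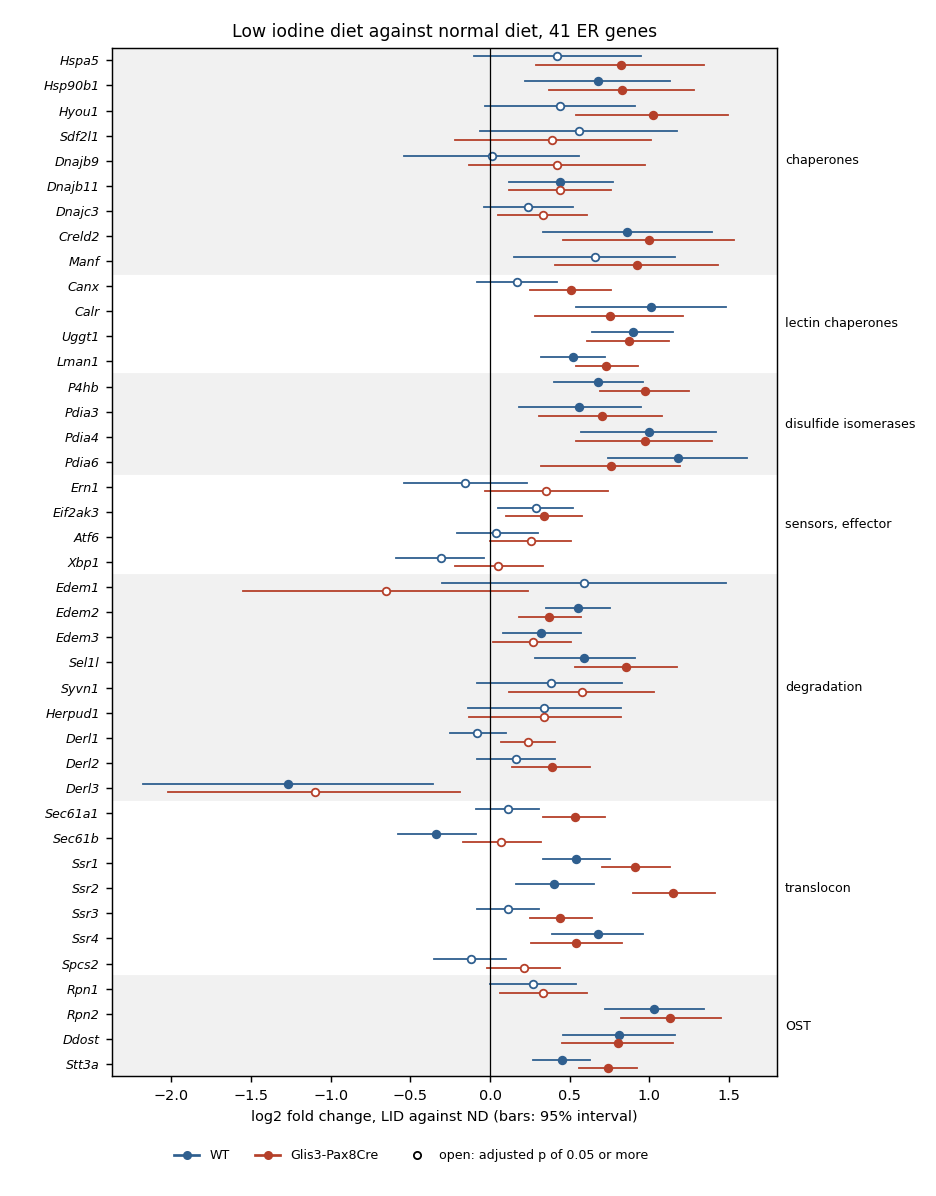
Log2 fold change of the LID against the ND for each of the 41 genes on the x axis, in WT (blue) and *Glis3*-Pax8Cre (red) mice, with bars of the 95% interval and filled points for an adjusted p under 0.05. All 4 disulfide isomerases are filled in both genotypes, whereas *Derl3* lies far to the left of the other genes.

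Under the LID, 9 of 41 were higher in *Glis3*-Pax8Cre than in WT mice (22.0%, against 14.9% of all genes). They were *Canx*, *Lman1*, *P4hb*, *Ern1*, *Ssr1*, *Ssr2*, *Ssr3*, *Rpn2* and *Stt3a*, and the median over the 41 genes was 0.20 beside 0.01 over all genes. By edgeR 0 were lower (15.4% of all genes were), with 1 at an unadjusted p under 0.05 and 0 by DESeq2. On the ND, *Ssr1* alone was higher (2.44%, against 10.3% of all genes), with a median of 0.02 beside 0.02. By edgeR 0 were lower (9.25% of all genes were), with 1 at an unadjusted p under 0.05 and 0 by DESeq2. Both genotype comparisons use the same mice as the diet comparisons, so their values are given side by side and no overlap between them is read.

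Of these 9 calls under the LID, 6 were lost when a single mouse was left out. Leaving out replicate 3 of either LID group, or replicate 4 of WT(LID), left 3, *Ern1*, *Ssr1* and *Ssr2*, which held in all 16 fits with a mouse left out. On the ND the count was 6 without *Glis3*-Pax8Cre(ND) replicate 4, the added genes being *Calr*, *Pdia3*, *Pdia4*, *Pdia6* and *Rpn2*. Scaling by library size alone gave 16 calls under the LID and 5 on the ND, but it also moved the median of all genes to 0.16 and 0.14.

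**Figure D3:**
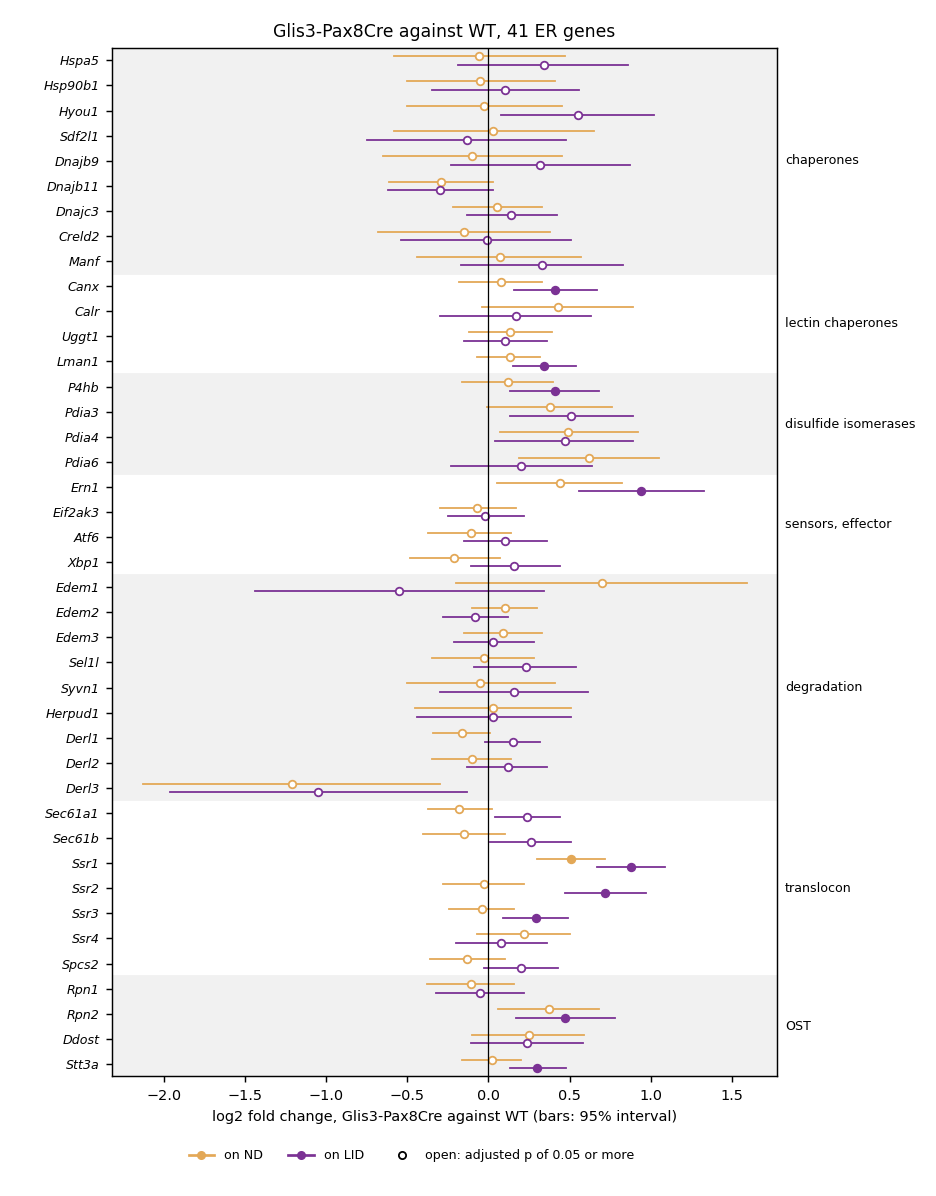
Log2 fold change of *Glis3*-Pax8Cre against WT for each of the 41 genes on the x axis, on the ND (yellow) and the LID (purple), with bars of the 95% interval and filled points for an adjusted p under 0.05. *Ssr1* is the only gene filled on both diets, and *Ern1* lies farthest to the right on the LID.

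Per kilobase of exon, *Calr* was the most abundant of the 41 RNAs, with a mean of 1200 CPM per kb over the 16 mice. It was followed by *Hsp90b1* at 769, *Pdia3* at 677, *Pdia6* at 544, *Hspa5* at 471 and *P4hb* at 453 CPM per kb. The 3 sensors were among the least abundant, at 10.2 for *Ern1*, 11.5 for *Atf6* and 13.3 for *Eif2ak3*. *Tg* itself stood at 22100 CPM per kb.

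The HSP70 and HSP90 group holds the main luminal chaperones and their helpers. *Hspa5* encodes BiP, the HSP70 of the ER and the usual readout of the UPR. Its level was 1810, 1880, 1040 and 929 CPM on the ND and 2390, 1900, 1890 and 1410 under the LID in the WT mice (replicates 1 to 4, in this order throughout). The *Glis3*-Pax8Cre mice had 1440, 1200, 1810 and 993 CPM on the ND and 2390, 2750, 2960 and 1500 under the LID. The ND and LID mice overlapped in both genotypes, and in *Glis3*-Pax8Cre(LID) replicate 4 was far below the other 3. *Hspa5* rose under the LID in *Glis3*-Pax8Cre mice (log2 fold change 0.82, SE 0.27, adjusted p = 0.0364) but this call held in 8 of 16 fits with a mouse left out. In WT mice it did not pass (0.42, SE 0.27, adjusted p = 0.222, 95% interval -0.10 to 0.95). Between genotypes the log2 fold change was 0.34 under the LID (adjusted p = 0.378) and -0.06 on the ND (adjusted p = 0.91).

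*Hsp90b1* encodes GRP94, the HSP90 of the ER. It measured 1850, 1740, 1630 and 1370 CPM on the ND and 2890, 2880, 2670 and 2070 under the LID in the WT mice. Without GLIS3 the level was 1380, 1860, 2160 and 983 on the ND and 2370, 3350, 3640 and 1940 under the LID. Every WT(LID) mouse lay above every WT(ND) mouse, while the *Glis3*-Pax8Cre groups overlapped. The gene rose under the LID in WT (0.68, SE 0.23, adjusted p = 0.0289) and in *Glis3*-Pax8Cre (0.83, SE 0.23, adjusted p = 0.0174). The former call held in 11 and the latter in 14 of 16 fits with a mouse left out. It differed little between genotypes, by 0.10 under the LID and -0.05 on the ND, with intervals of -0.35 to 0.56 and -0.50 to 0.41.

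*Hyou1*, an exchange factor and chaperone that works with BiP, measured 314, 335, 200 and 172 CPM on the ND and 413, 374, 342 and 256 under the LID in the WT mice. Levels in the *Glis3*-Pax8Cre mice were 253, 222, 324 and 204 on the ND and 450, 544, 681 and 353 under the LID. The latter groups did not overlap while the WT groups did, and in *Glis3*-Pax8Cre the log2 fold change was 1.02 (SE 0.24, adjusted p = 0.00734), beside 0.44 (adjusted p = 0.16) in WT. *Creld2*, a secreted ER stress gene with isomerase activity, measured 160, 163, 99.1 and 101 CPM on the ND and 303, 237, 231 and 180 under the LID in the WT mice. In the *Glis3*-Pax8Cre mice the level was 134, 116, 146 and 75.5 on the ND and 201, 308, 291 and 141 under the LID. The WT groups did not overlap, in *Glis3*-Pax8Cre only LID replicate 4 lay below the highest ND mouse, and the gene rose in *Glis3*-Pax8Cre (1.00, SE 0.27, adjusted p = 0.0151) and in WT (0.86, SE 0.27, adjusted p = 0.0192). *Manf*, another secreted ER stress protein, rose by 0.92 in *Glis3*-Pax8Cre (adjusted p = 0.0176) and measured 0.66 in WT (adjusted p = 0.0526). The co-chaperone *Dnajb11* measured 0.44 in both, with adjusted p = 0.04 in WT and 0.0607 in *Glis3*-Pax8Cre, where it passed with the replicate block. *Dnajb9*, *Dnajc3* and *Sdf2l1*, also co-chaperones of BiP, passed in neither in the main edgeR fit, with values from 0.01 to 0.56. In *Glis3*-Pax8Cre, *Dnajb9* passed only in the block of the 8 mice alone, and *Dnajc3* and *Sdf2l1* passed with neither block. *Sdf2l1* was called higher with the LID in the fit of the 8 WT mice alone, without a block. Over the 9 genes of the group, 3 rose in WT (33.3%, against 20.9% of all genes) and 5 in *Glis3*-Pax8Cre (55.6%, against 13.1%) under the LID. For the genotype, edgeR called 0 of 9 on either diet, with 1 (*Hyou1* under the LID) and 0 at an unadjusted p under 0.05 and 0 by DESeq2. The shares of all genes were 14.9% higher and 15.4% lower under the LID, and 10.3% and 9.25% on the ND.

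The lectin group reads the glycans of folding glycoproteins. *Calr*, the calcium-binding lectin calreticulin, stood at 1730, 1530, 1680 and 1400 CPM in WT(ND) and at 3520, 3270, 3360 and 2590 in WT(LID). In the *Glis3*-Pax8Cre mice it stood at 1670, 2660, 2970 and 1210 on the ND and at 3000, 4280, 4320 and 2680 under the LID. The WT groups were well apart and the *Glis3*-Pax8Cre groups overlapped. The log2 fold change was 1.01 in WT (SE 0.24, adjusted p = 0.00341) and 0.75 in *Glis3*-Pax8Cre (SE 0.24, adjusted p = 0.0322).

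*Uggt1*, the folding sensor that re-glucosylates misfolded glycoproteins, rose in both genotypes, by 0.90 in WT (SE 0.13, adjusted p = 6.28e-05) and 0.87 in *Glis3*-Pax8Cre (SE 0.13, adjusted p = 0.000251). *Lman1*, the cargo receptor ERGIC-53 for export to the Golgi, rose by 0.52 and 0.73 and was also higher without GLIS3 under the LID (0.34, SE 0.10, adjusted p = 0.0171). *Canx*, the membrane-bound partner of *Calr*, rose by 0.51 in *Glis3*-Pax8Cre (adjusted p = 0.0098), measured 0.17 in WT (adjusted p = 0.321), and was higher without GLIS3 under the LID by 0.41 (adjusted p = 0.0233).

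The 4 protein disulfide isomerases of the set form and rearrange disulfide bonds, and all 4 rose under the LID in both genotypes. In the wider list given below, *Pdia5* also rose in both genotypes. *Pdia2* of that list fell with the LID in *Glis3*-Pax8Cre and was lower without GLIS3 under the LID. *Pdia6*, also called P5, measured 695, 656, 685 and 525 CPM on the ND and 1790, 1390, 1400 and 1210 under the LID in the WT mice. The *Glis3*-Pax8Cre mice had 834, 1140, 1370 and 587 CPM on the ND and 1430, 1930, 1990 and 1310 under the LID. The lowest WT(LID) mouse was above the highest WT(ND) mouse by a wide margin, and the *Glis3*-Pax8Cre groups overlapped. Its rise in WT, 1.18 (SE 0.22, adjusted p = 0.000637), was the highest of the 41 genes in that comparison, beside 0.76 in *Glis3*-Pax8Cre (SE 0.22, adjusted p = 0.0208). *Pdia6* overlaps *Atp6v1c2* and *Pdia4* holds a microRNA gene, and the counting ignored strand.

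*Pdia4*, or ERp72, measured 391, 371, 357 and 275 CPM on the ND and 790, 733, 704 and 552 under the LID in the WT mice. Without GLIS3 the level was 427, 553, 669 and 312 on the ND and 836, 1070, 1220 and 711 under the LID. Within each genotype the diets did not overlap. It rose by 1.00 in WT (SE 0.22, adjusted p = 0.00179) and 0.97 in *Glis3*-Pax8Cre (SE 0.22, adjusted p = 0.00464). Without GLIS3 it measured 0.47 under the LID (adjusted p = 0.118) and 0.49 on the ND (adjusted p = 0.121), which did not pass. *P4hb*, the founding isomerase PDI, rose by 0.68 in WT and 0.97 in *Glis3*-Pax8Cre, and was higher without GLIS3 under the LID by 0.41 (SE 0.14, adjusted p = 0.0389). *Pdia3*, or ERp57, which serves the lectin chaperones, rose by 0.56 and 0.70.

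Of the 3 sensors and *Xbp1*, edgeR called 0 higher under the LID in WT (against 20.9% of all genes). There 1 was higher and 1 lower at an unadjusted p under 0.05, and 1 was higher by DESeq2. In *Glis3*-Pax8Cre edgeR called 1 higher (25.0%, against 13.1% of all genes). *Xbp1*, whose RNA is spliced by IRE1, measured 311, 303, 241 and 259 CPM on the ND and 236, 230, 220 and 210 under the LID in the WT mice. Levels in the *Glis3*-Pax8Cre mice were 266, 221, 278 and 201 on the ND and 264, 289, 269 and 179 under the LID. The WT(LID) mice lay just below the WT(ND) mice without overlap, and the other groups overlapped. It passed in none of the 4 comparisons, with -0.31 in WT (SE 0.14, adjusted p = 0.0868), 0.05 in *Glis3*-Pax8Cre (adjusted p = 0.812), 0.16 without GLIS3 under the LID (adjusted p = 0.43) and -0.21 on the ND (adjusted p = 0.324). In WT it was called lower in the fit of the 8 WT mice alone (-0.31, adjusted p = 0.0203) and with library size alone (-0.47, adjusted p = 0.0111). Gene counts do not tell spliced from unspliced *Xbp1*.

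*Ern1*, which encodes the sensor IRE1 alpha, measured 69.7, 59.1, 72.4 and 66.9 CPM on the ND and 50.4, 74.2, 60.1 and 56.0 under the LID in the WT mice. In the *Glis3*-Pax8Cre mice the level was 81.7, 91.7, 103 and 85.7 on the ND and 100, 69.5, 165 and 129 under the LID. In *Glis3*-Pax8Cre(LID), 3 of 4 mice lay above every WT(LID) mouse and replicate 2 lay within their range. *Ern1* was higher without GLIS3 under the LID, by 0.94 (SE 0.20, adjusted p = 0.00198). On the ND the groups did not overlap, but 0.44 did not pass (SE 0.20, adjusted p = 0.133). The diet comparisons gave -0.16 in WT and 0.35 in *Glis3*-Pax8Cre, neither past the threshold.

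*Eif2ak3*, the sensor PERK, rose by 0.34 in *Glis3*-Pax8Cre (SE 0.12, adjusted p = 0.0497), a call that held in 3 of 16 fits with a mouse left out and was lost with the replicate block, and measured 0.29 in WT (adjusted p = 0.0647). *Atf6*, the sensor that becomes a transcription factor by cleavage in the Golgi, passed in none, with values from -0.11 to 0.26. The RNAs downstream of PERK were listed separately as *Atf4*, *Ddit3*, *Trib3*, *Chac1*, *Asns* and *Ppp1r15a*. *Trib3* was higher without GLIS3 under the LID (0.53, SE 0.13, adjusted p = 0.00558) and rose with the LID in *Glis3*-Pax8Cre (0.44, adjusted p = 0.0228). In WT, *Atf4* rose by 0.29 (adjusted p = 0.0304) and *Ppp1r15a*, the phosphatase subunit of the feedback loop, by 0.38 (adjusted p = 0.00118). *Ddit3*, the factor CHOP, stayed between means of 11.2 and 12.4 CPM with values from -0.11 to -0.04, and *Ddit3*, *Chac1* and *Asns* passed in none of the comparisons.

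The degradation group was mixed. *Sel1l*, the scaffold of the HRD1 ubiquitin ligase, rose by 0.59 in WT (SE 0.16, adjusted p = 0.00817) and 0.85 in *Glis3*-Pax8Cre (SE 0.16, adjusted p = 0.00157), whereas *Syvn1*, the ligase itself, measured 0.38 and 0.58 and did not pass (adjusted p = 0.211 and 0.0818). Of the mannosidase-like factors that mark glycoproteins for degradation, *Edem2* rose in both (0.55 and 0.37, the latter lost in the block of 8 mice) and *Edem3* in WT (0.32, adjusted p = 0.0476, in 5 of 16 fits with a mouse left out). *Edem1* passed in none. It measured 277 CPM in *Glis3*-Pax8Cre(ND) replicate 4 and from 51.2 to 117 in the other 15 mice. That same mouse had a summed level of 10 thymocyte markers of 3020 CPM, against 4.72 to 373 CPM in the others, and the part of this in *Edem1* was not tested. Without it *Edem1* was lower under the LID in *Glis3*-Pax8Cre than in WT and rose with the LID in WT.

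*Derl3*, a derlin of the retrotranslocation complex, had the most negative log2 fold change of the 41 genes under the LID in both genotypes. Its level was 60.6, 48.4, 47.4 and 31.2 CPM on the ND and 22.9, 22.2, 21.7 and 10.9 under the LID in the WT mice. The *Glis3*-Pax8Cre mice had 20.3, 33.0, 21.8 and 5.53 CPM on the ND and 7.62, 12.3, 13.6 and 4.10 under the LID. All WT(LID) mice were below all WT(ND) mice, the other 3 pairs of groups overlapped, and replicate 4 was lowest in every group. *Derl3* fell in WT under the LID (-1.27, SE 0.46, adjusted p = 0.0409), a call that held in 8 of 16 fits with a mouse left out. It did not pass in *Glis3*-Pax8Cre (-1.10, SE 0.47, adjusted p = 0.0986), without GLIS3 under the LID (-1.05, adjusted p = 0.108) or on the ND (-1.21, adjusted p = 0.0827). With the replicate number as a block, taken as pairing the *Glis3*-Pax8Cre mice, it fell in *Glis3*-Pax8Cre under the LID (-1.03, adjusted p = 0.0136). Of the other derlins, *Derl2* rose in *Glis3*-Pax8Cre (0.39, adjusted p = 0.0344) and measured 0.16 in WT. *Derl1* passed in no comparison of the main edgeR fit, which has no block, but DESeq2 called it higher with the LID in *Glis3*-Pax8Cre. *Herpud1*, an adaptor of the same complex, measured 0.34 in both diet comparisons and did not pass. In the genotype comparisons edgeR called 0 of the 9 degradation genes, with 1 (*Derl3*) at an unadjusted p under 0.05 on each diet and 0 by DESeq2. Of all genes, 14.9% were higher and 15.4% lower under the LID, and 10.3% and 9.25% on the ND.

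By count, the translocon group held the most genotype calls of any role. Under the LID these were 3 of its 7 genes (42.9%, against 14.9% of all genes). The lectin group and the oligosaccharyltransferase each had a larger share there, 2 of 4 genes. All calls of the translocon group lay within the translocon-associated protein (TRAP) complex, which helps glycoproteins enter the ER. *Ssr1*, its alpha subunit, measured 205, 215, 221 and 170 CPM on the ND and 311, 307, 280 and 281 under the LID in the WT mice. Without GLIS3 the level was 278, 274, 348 and 251 on the ND and 531, 552, 600 and 488 under the LID. None of the 4 pairs of groups that were compared overlapped. *Ssr1* was higher without GLIS3 by 0.88 under the LID (SE 0.11, adjusted p = 2.21e-05) and 0.51 on the ND (SE 0.11, adjusted p = 0.00448). It rose with the LID by 0.54 in WT and 0.91 in *Glis3*-Pax8Cre, and the difference of those rises did not pass (0.37, SE 0.15, adjusted p = 0.128).

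*Ssr2*, the beta subunit, measured 91.4, 94.7, 70.6 and 70.9 CPM on the ND and 126, 102, 95.0 and 111 under the LID in the WT mice. Levels in the *Glis3*-Pax8Cre mice were 81.0, 72.5, 88.1 and 79.6 on the ND and 160, 218, 176 and 161 under the LID. The ND groups overlapped, and every *Glis3*-Pax8Cre(LID) mouse was above every WT(LID) mouse. On the ND the genotypes differed by -0.03 (95% interval -0.28 to 0.22), and under the LID by 0.72 (SE 0.13, adjusted p = 0.000523). The LID raised *Ssr2* by 0.40 in WT (SE 0.13, adjusted p = 0.0181) and by 1.15 in *Glis3*-Pax8Cre (SE 0.13, adjusted p = 2.06e-05), a 2.22-fold rise. *Ssr2* was the only one of the 41 genes to pass the test of genotype by diet (0.75, SE 0.18, adjusted p = 0.0135), or 2.44% against 4.43% of all genes in this direction. In the other direction edgeR called 0 of 41 (7.41% of all genes), with 0 at an unadjusted p under 0.05 and 0 by DESeq2. The call for *Ssr2* held in 16 of 16 fits with a mouse left out, and DESeq2 added *Sec61a1*.

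*Ssr3*, the gamma subunit, rose in *Glis3*-Pax8Cre by 0.44 (adjusted p = 0.00527). It was higher without GLIS3 under the LID by 0.29 (adjusted p = 0.0413), in 8 of 16 fits with a mouse left out. *Ssr4*, the delta subunit, rose with the LID in both genotypes, by 0.68 and 0.54, and measured 0.08 and 0.22 between genotypes. *Sec61a1*, the pore of the translocon, rose in *Glis3*-Pax8Cre by 0.53 (SE 0.10, adjusted p = 0.00165) and measured 0.11 in WT.

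*Sec61b*, the small beta subunit of that pore, measured 123, 117, 125 and 101 CPM in WT(ND) and 111, 88.4, 81.8 and 87.9 in WT(LID). Replicate 1 of the LID lay within the WT(ND) range and the other 3 below it, and *Sec61b* fell by 0.34 in WT (SE 0.13, adjusted p = 0.0442), in 7 of 16 fits with a mouse left out. In *Glis3*-Pax8Cre it measured 121, 97.1, 118 and 85.5 CPM on the ND and 104, 130, 109 and 100 under the LID, a difference of 0.07. *Spcs2*, a subunit of signal peptidase, passed in none, with values from -0.13 to 0.21.

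The oligosaccharyltransferase moves the assembled glycan onto the nascent chain. *Rpn2*, a subunit of its core, measured 362, 335, 427 and 368 CPM on the ND and 788, 778, 773 and 714 under the LID in the WT mice. In the *Glis3*-Pax8Cre mice the level was 417, 561, 620 and 335 on the ND and 928, 1210, 1120 and 984 under the LID. Only the ND groups overlapped among the pairs compared. *Rpn2* rose by 1.03 in WT (SE 0.16, adjusted p = 0.000106) and 1.13 in *Glis3*-Pax8Cre (SE 0.16, adjusted p = 0.000144), or 2.05-fold and 2.20-fold. It was higher without GLIS3 under the LID by 0.47 (SE 0.16, adjusted p = 0.0317), in 10 of 16 fits with a mouse left out, and measured 0.37 on the ND (adjusted p = 0.107). *Rpn2* overlaps *Mroh8*.

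*Ddost*, another core subunit, rose by 0.81 and 0.80, and the catalytic subunit *Stt3a* by 0.45 and 0.74. *Stt3a* was also higher without GLIS3 under the LID (0.30, SE 0.09, adjusted p = 0.0194). *Rpn1* passed in no comparison of the main edgeR fit, although its WT groups did not overlap between diets (0.27, adjusted p = 0.13). It was called higher with the LID in WT in the fit of the 8 WT mice alone.

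**Figure D4:**
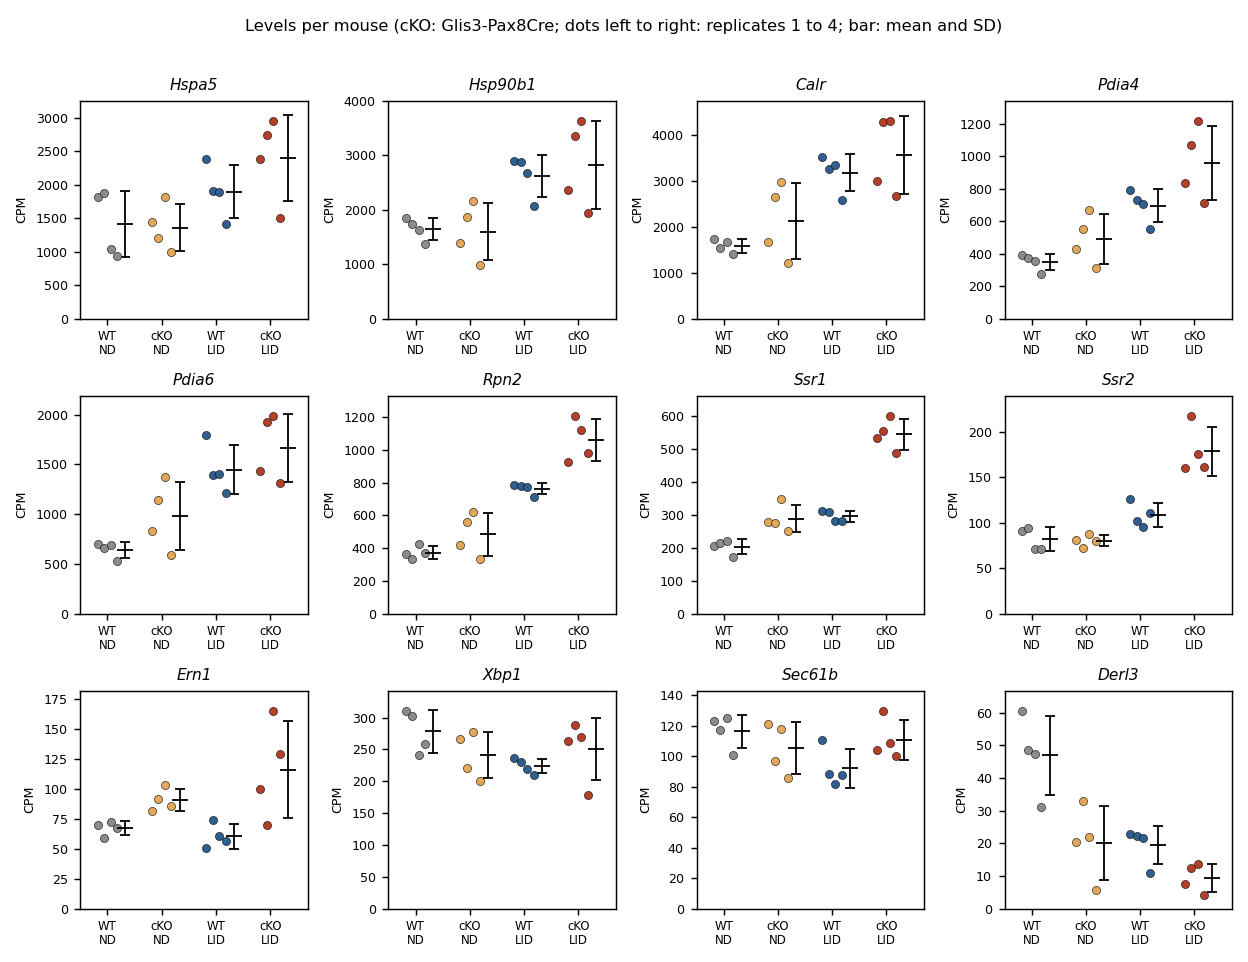
CPM in each of the 16 mice for 12 of the genes, with WT and *Glis3*-Pax8Cre (cKO) mice on the ND and LID on the x axis, and the mean and SD of 4 mice beside the points. *Ssr1* and *Ssr2* are highest in all 4 *Glis3*-Pax8Cre(LID) mice, and *Derl3* is highest in WT(ND).

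Genes with and without an ERSE were then set side by side. Of the 11 genes with an ERSE or ERSE-II, 5 rose in WT and 6 in *Glis3*-Pax8Cre under the LID, with medians of 0.42 and 0.58, where 20.9% and 13.1% of all genes rose. Of the 23 genes with a promoter entry and neither element, 12 and 14 rose, with medians of 0.54 and 0.42. No test was made of these counts. Among the 11, *Derl3* fell in WT although its window holds an ERSE at -156 to -138.

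Set against their cargo, the summed CPM of the 41 genes was 5.48% ± 1.39 (SD, n = 4) of the *Tg* CPM of the same mouse on the ND and 8.21% ± 1.65 under the LID in WT mice. In *Glis3*-Pax8Cre mice it was 10.4% ± 1.66 on the ND and 24.6% ± 8.16 under the LID. The *Glis3*-Pax8Cre(LID) mice ranged from 20.1% to 36.8%, above every other mouse. *Tg* was lower without GLIS3 by 1.28 on the log2 scale under the LID (log2 fold change -1.28, SE 0.23, adjusted p = 0.000683) and by 0.81 on the ND (-0.81, SE 0.23, adjusted p = 0.0239), and it did not pass with diet (0.02 in WT and -0.45 in *Glis3*-Pax8Cre). The summed level itself was 13500 ± 1570 CPM on the ND and 20700 ± 2410 under the LID in WT mice, and 15100 ± 3660 and 25100 ± 4810 CPM in *Glis3*-Pax8Cre mice (SD, n = 4 each). Both parts of the ratio are thus given, since a fall of *Tg* alone raises it, and *Tg* overlaps *Sla*. These sums are descriptions with no test.

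By role, the disulfide isomerases summed to 3160 ± 272 CPM on the ND and 5460 ± 627 under the LID in WT mice, and to 4100 ± 1250 and 7210 ± 1230 CPM in *Glis3*-Pax8Cre mice (SD, n = 4 each). The oligosaccharyltransferase subunits went from 1190 ± 81.7 to 1930 ± 116 CPM in WT and from 1330 ± 293 to 2360 ± 326 in *Glis3*-Pax8Cre. The sensors and *Xbp1* summed to means between 441 and 528 CPM in the 4 groups, and the mice overlapped in all 4 pairs of groups compared.

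**Figure D5:**
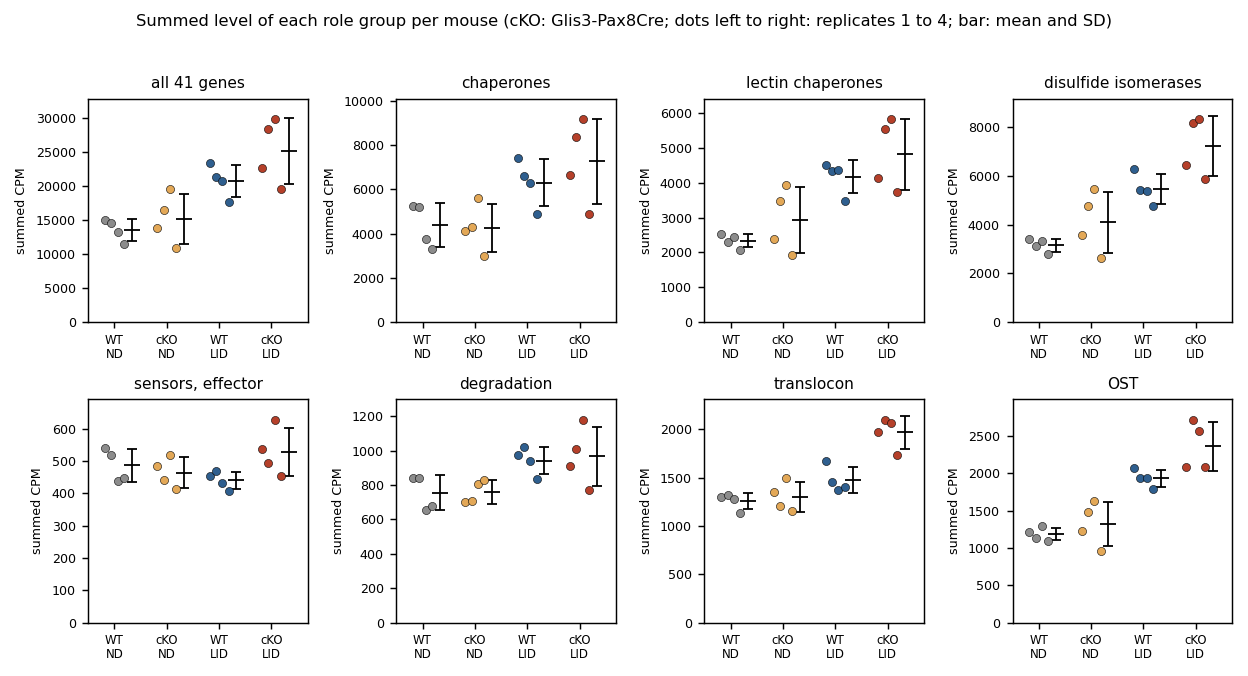
Summed CPM per mouse of all 41 genes and of each role group, with the 4 groups on the x axis and the mean and SD of 4 mice beside the points (OST, oligosaccharyltransferase). The isomerases and the oligosaccharyltransferase separate by diet within each genotype, and the sensors stay between 408 and 628 CPM in every mouse.

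A wider list of 145 other genes of the same pathways, of which 144 were tested, is given by its counts. Under the LID 62 rose in WT (43.1%, against 20.9% of all genes) and 3 fell (2.08%, against 20.8%), and 74 rose in *Glis3*-Pax8Cre (51.4%, against 13.1%) and 2 fell (1.39%, against 12.3%). Without GLIS3, 35 were higher (24.3%, against 14.9%) and 8 lower (5.56%, against 15.4%) under the LID. On the ND 26 were higher (18.1%, against 10.3%) and 3 lower (2.08%, against 9.25%). The medians were 0.24, 0.32, 0.14 and 0.04. The interaction called 2 higher (*Alg11* and *Dolk*, 1.39% against 4.43% of all genes) and 3 lower (*Qsox1*, *Serpinh1* and *Sdf4*, 2.08% against 7.41%).

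The other oxidoreductases of the ER were the group of the wider list with the most genotype calls. Of 19, 11 were higher without GLIS3 under the LID (57.9%, against 14.9% of all genes) and 10 on the ND (52.6%, against 10.3%), while the 3 lower under the LID (15.8%) were near the share of all genes (15.4%). *Ero1lb*, which reoxidises PDI, was under the LID at 367 ± 36.8 CPM in WT mice and 657 ± 64.6 in *Glis3*-Pax8Cre mice (SD, n = 4; log2 fold change 0.84, adjusted p = 0.000126). *Vkorc1*, a vitamin K epoxide reductase, was higher by 0.75 (adjusted p = 0.00384), and *Tmx1*, a membrane-bound thioredoxin, by 0.89 on the ND (adjusted p = 0.00288). *Pdia5* rose with the LID by 1.36 in WT and 1.31 in *Glis3*-Pax8Cre. *Qsox1*, a sulfhydryl oxidase, rose by 0.55 in WT and fell by 0.50 in *Glis3*-Pax8Cre, and this difference passed the interaction test (-1.05, SE 0.17, adjusted p = 0.000679).

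Among the other chaperones and prolyl isomerases, *Fkbp11*, a prolyl isomerase of secretory cells, went from 10.7 ± 1.05 CPM in WT(ND) to 23.8 ± 4.23 in WT(LID) and from 19.9 ± 6.82 to 58.8 ± 8.67 in *Glis3*-Pax8Cre (SD, n = 4). It was higher without GLIS3 on both diets, by 1.31 under the LID (adjusted p = 0.000311) and 0.89 on the ND (adjusted p = 0.00985). *Fkbp10* was higher without GLIS3 on the ND by 1.09 (adjusted p = 0.00294). *Sdf4*, a calcium-binding protein of the Golgi lumen, rose with the LID in WT by 1.40 and in *Glis3*-Pax8Cre by 0.56, a difference that passed the interaction test (-0.84, adjusted p = 0.00396).

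*Serpinh1*, the collagen chaperone HSP47, was lower without GLIS3 under the LID (-0.98, SE 0.17, adjusted p = 0.000492) and rose with the LID in WT by 1.25. Of 6 fibroblast markers, the collagen genes *Col1a1* and *Col1a2* followed the same pattern, at 426 to 525 and 463 to 551 CPM in WT(LID), and set the sum of the 6, which was 1100 to 1290 CPM there and 259 to 792 in the other groups. The other 4 did not follow it in full, since *Pdgfra* and *Dcn* fell with the LID in WT and *Lum* passed in no comparison. *Pi16* was lower without GLIS3 under the LID but did not pass with the LID in WT. The part of these in *Serpinh1* was not tested. *Wfs1*, a calcium regulator of the ER membrane, was lower without GLIS3 under the LID (-1.32, SE 0.20, adjusted p = 0.000137) and on the ND (-0.77, adjusted p = 0.0137).

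The ER exit and retrieval list had 11 of 22 genes higher in WT (against 20.9% of all genes) and 18 of 22 in *Glis3*-Pax8Cre (against 13.1%) under the LID. *Tmed3*, a cargo receptor, rose by 1.40 in WT and *Kdelr3*, a receptor that returns escaped chaperones, by 0.98 in *Glis3*-Pax8Cre, whereas the coat subunit *Sec24d* was lower without GLIS3 on the ND (-0.67, adjusted p = 0.0276). Glycan assembly and trimming had 13 and 14 of 27 higher with the LID (48.1% and 51.9%). Targeting and translocation had 3 of 18 higher in WT (16.7%, below the share of all genes) and 8 in *Glis3*-Pax8Cre (44.4%). Of the other degradation genes, 6 of 23 rose in WT (26.1%, near the share of all genes) and 3 fell (13.0%), the latter being *Tmub1* (-0.53, adjusted p = 0.000446), *Man2c1* (-0.28) and *Ngly1* (-0.20), and 7 of 23 rose in *Glis3*-Pax8Cre (30.4%). *Man2c1*, a cytosolic mannosidase, was also lower without GLIS3 on the ND (-0.26, adjusted p = 0.0127). The other UPR regulators had 3 of 12 higher in WT (25.0%) and 1 of 12 in *Glis3*-Pax8Cre (8.33%) with the LID, both near the shares of all genes.

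Plasma cells and B cells, which are rich in the same ER genes, summed to between 46.3 and 71.4 CPM over the 11 of 13 markers in the table, with each group's range overlapping the others. *Sdc1*, *Prdm1* and *Irf4* made up most of the sum, and its members did not move together. *Sdc1* rose with the LID in both genotypes, from 9.93 to 11.6 CPM in WT(ND) and 20.1 to 22.4 in WT(LID), and was lower without GLIS3 under the LID. *Mzb1* rose with the LID in WT and was lower without GLIS3 on both diets, at 6.63 CPM or less in every mouse. *Ms4a1*, a B cell marker, and *Tnfrsf17*, a plasma cell marker, passed in no comparison and were at 1.45 CPM or less in every mouse. The sum of 5 C-cell markers was lower under the LID, from 7340 to 9630 CPM in WT(ND) and 2350 to 3700 in WT(LID). In the *Glis3*-Pax8Cre mice it ran from 3370 to 5830 CPM on the ND and from 1270 to 3220 under the LID. The sum of 3 parathyroid markers was 3290 CPM or more in each ND mouse and 2100 or less in each LID mouse. Endothelial markers were at 1320 to 1490 CPM in WT(LID) and 488 to 889 elsewhere. Their part in the results above was not tested.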

How the data were processed

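RNA-seq of thyroid glands from 16 mice was analysed from the count table. The authors deposited raw counts of read pairs per gene, made with STAR 2.5 and featureCounts 1.5.0-p1 on mm10 with RefSeq gene models and without regard to strand, so overlapping genes share reads. The instrument used for each library is not given in the sources used here. Samples were grouped by the genotype and diet labels.

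Counts were fitted with edgeR 4.0.16 (R 4.3.3, limma 3.58.1) by the quasi-likelihood test, with TMM scaling, the filterByExpr filter and 1 mean per group over all 16 mice. Genotype was contrasted on each diet, diet in each genotype, and their interaction. P-values were adjusted by Benjamini-Hochberg over 16630 genes and called at 0.05, and 95% intervals come from the normal approximation to the SE. CPM used TMM-scaled library sizes, and CPM per kb the union of GENCODE M21 exons. The scripts were tested on simulated data. DESeq2 1.42.0, other scalings, filters, 8 mice alone, a replicate block and leaving out each mouse were alternatives. The count limits given for depth cover counting error only. None of the 24 pairs of mice within a group agreed within sampling noise, and pairs across groups were not checked.

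The 41 genes and all lists were chosen with earlier results of these data known. Values in every mouse are given for the top 4 called genes per direction of each comparison, ranked by log2 fold change, and for *Hspa5*, *Hsp90b1*, *Xbp1*, *Pdia4* and *Derl3* in any case. From the other pathway lists, the 3 largest called changes in each direction with a mean of at least 5 CPM are named, with *Tg* and the PERK readouts in any case. Same-numbered *Glis3*-Pax8Cre mice on the 2 diets deviated together (correlations 0.21, 0.29, 0.63 and 0.65), so those numbers were taken as pairing; in the other pairs of groups they ran from -0.58 to 0.17.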

Additional observations from a re-analysis of the deposited data

Results flagged for a closer look

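In 7 of 164 groups of 4 mice, 1 mouse stood apart from the other 3 by Dixon's criterion at the 95% level, which chance gives in about 1 in 20 groups. The values were 394 CPM for *Uggt1* in *Glis3*-Pax8Cre(LID) replicate 3, 277 CPM for *Edem1* in *Glis3*-Pax8Cre(ND) replicate 4, 94.0 CPM for *Edem2* in WT(LID) replicate 1 and 92.7 CPM for *Edem3* in *Glis3*-Pax8Cre(ND) replicate 3. The others were 52.6 CPM for *Derl2* in *Glis3*-Pax8Cre(LID) replicate 4, 10.9 CPM for *Derl3* in WT(LID) replicate 4 and 295 CPM for *Sec61a1* in WT(LID) replicate 1.

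The effect of the LID on *Ssr2* differed between the genotypes, by 0.75 on the log2 scale in edgeR's interaction test (SE 0.18, adjusted p = 0.0135).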

How the results depend on the processing

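At the stricter threshold of the study (adjusted p under 0.01 and above 2-fold), 0 of the 41 genes were called for the genotype under the LID, 0 on the ND and 0 in the interaction, while 3 rose with the LID in WT (0 fell) and 3 in *Glis3*-Pax8Cre. The shares of all genes at this threshold are not given here, so these counts are not read as few or many. Library size alone gave 16 higher without GLIS3 under the LID, 5 on the ND, and 3 lower with the LID in WT with a median of 0.27, and turned *Hspa5* (0.05) and *Hsp90b1* (0.06) on the ND and *Xbp1* with the LID in *Glis3*-Pax8Cre (-0.08); it moved the median of all genes to 0.16, 0.14, -0.18 and -0.17. The 8 mice alone gave 1 lower without GLIS3 under the LID (*Edem1*), 2 higher on the ND and 15 higher with the LID in *Glis3*-Pax8Cre. DESeq2 gave 2 higher on the ND and 2 in the interaction. In WT with the LID, RLE scaling and leaving *Tg* out each left 1 lower gene, and no filter left 0.

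With the replicate block, *Derl3* was also called lower without GLIS3 under the LID (-1.12, adjusted p = 0.00639; 1 lower) and on the ND (-1.41, adjusted p = 0.00338; 1 lower), 3 genes were higher on the ND, 3 were lower with the LID in WT, including *Xbp1* (-0.31, adjusted p = 0.0478), and 1 was lower with the LID in *Glis3*-Pax8Cre (also 1 in the block of the 8 *Glis3*-Pax8Cre mice alone, chosen after seeing the data).

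Leaving out 1 mouse at a time, the counts of higher genes ran from 3 to 12 and of lower genes from 0 to 2 without GLIS3 under the LID (median 0.12 to 0.30), 1 to 6 and 0 to 1 on the ND (-0.10 to 0.10), 13 to 22 and 0 to 3 with the LID in WT (0.35 to 0.54), 16 to 28 and 0 to 1 in *Glis3*-Pax8Cre (0.41 to 0.62) and 1 to 2 and 0 to 0 in the interaction (0.06 to 0.31). *Hsp90b1* ran from -0.04 to 0.25 under the LID and -0.23 to 0.14 on the ND without GLIS3, *Hspa5* from -0.22 to 0.11 on the ND, and *Xbp1* from -0.03 to 0.18 with the LID in *Glis3*-Pax8Cre. The cause of these changes was not tested.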

Other observations

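Replicate 4 was the lowest mouse of its group in all 4 groups for 16 of the 41 genes, among them *Hspa5*, *Hsp90b1*, *Calr*, *Pdia3*, *Pdia4*, *Pdia6* and *Derl3*, against 165 of 16630 genes (0.992%). No other replicate number was lowest or highest in all 4 groups for any of the 41 genes. The labels do not say what a replicate number stands for.

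*Mzb1*, an ER co-chaperone of plasma and B cells, measured 1.31 to 2.75 CPM in WT(ND), 0.753 to 1.71 in *Glis3*-Pax8Cre(ND), 4.65 to 6.63 in WT(LID) and 0.518 to 1.04 in *Glis3*-Pax8Cre(LID).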
